A study of Homo sapiens with 6 samples.

Results

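The ZNF genes of chromosome 19 were examined in HK-2, an established human cell line derived from the epithelium of the renal proximal tubule. A member was a protein-coding gene placed on chromosome 19 of GRCh38 by its Ensembl identifier, with a symbol made of ZNF, a number and at most 1 further letter. The deposited table held 235 of the 246 such genes of the annotation, among 29483 genes in all. They were compared with the other 993 protein-coding genes of chromosome 19 in the table and with 238 ZNF genes of other chromosomes. All cells were kept for 7 days in high D-glucose (HG) medium at 25 mM. For 1 day more, TEPP-46, which activates the glycolytic enzyme PKM2 as a tetramer, was added at 10 μM to the 3 replicates of the case group and not to the 3 replicates of the control group. The values were FPKM, that is, fragments counted on a gene per kilobase of its length and relative to library depth. The study had no cells in normal glucose among these 6 libraries, so that each comparison is one of TEPP-46 under HG, and p-values measure the spread between the replicates of 1 cell line.

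C2H2 zinc finger proteins bind DNA through a row of small domains, each folded around a zinc ion held by a pair of cysteines and a pair of histidines. Most of those encoded on chromosome 19 also carry a KRAB box, which binds the corepressor *TRIM28*. *TRIM28* in turn brings in the histone methyltransferase *SETDB1* and the heterochromatin protein HP1, and many KRAB zinc finger proteins are known for silencing transposable elements in this way. The genes stand in tandem clusters that arose by repeated duplication, so that neighbouring genes resemble each other closely.

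The repeat that defines the family is shown for the 3 upregulated members with the smallest p-values and for the downregulated member. It is the first finger of each coding sequence that is followed by the conserved linker to the next finger, read from transcripts of the GENCODE annotation of GRCh38, with the codons of the zinc-binding cysteines and histidines in capitals.
ZNF416: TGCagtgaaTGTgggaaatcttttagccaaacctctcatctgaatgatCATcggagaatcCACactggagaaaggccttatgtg
ZNF256: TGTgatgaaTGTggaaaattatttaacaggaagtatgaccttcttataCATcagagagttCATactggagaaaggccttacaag
ZNF222: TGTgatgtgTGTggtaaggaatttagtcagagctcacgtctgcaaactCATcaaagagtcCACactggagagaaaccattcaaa
ZNF526: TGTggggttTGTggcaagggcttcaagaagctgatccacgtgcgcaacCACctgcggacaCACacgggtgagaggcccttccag
These coding stretches lie at chr19:57573007-57573090 (minus strand) in *ZNF416*, chr19:57941836-57941919 (minus strand) in *ZNF256*, chr19:44032197-44032280 (plus strand) in *ZNF222* and chr19:42225823-42225906 (plus strand) in *ZNF526*, each within 1 exon. Of the 84 bases, 56 in *ZNF256*, 53 in *ZNF222* and 42 in *ZNF526* equalled those of *ZNF416*. The GC content of the stretch was 44% in *ZNF416*, 35.7% in *ZNF256* and 42.9% in *ZNF222*, and it was 60.7% in *ZNF526*. A fragment that falls in a repeat alike between members can match more than 1 of them, and how the counting treated such fragments is not given in the sources used here.

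By the number of finger matches in the coding sequence, the members carried from 1 finger in *ZNF428* to 32 fingers in *ZNF91*, with a median of 12. A KRAB box was found in 202 of the 235 members by a profile search, and none was found in the other 33. The 2 classes differed in base composition. Transcripts of members with a KRAB box had a median GC content of 42.1%, those without one had 61.8%, and those of the other protein-coding genes of chromosome 19 had 59.9%. GC content matters below because the 3 case libraries differed from the controls by GC content in different ways.

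Most members were present at low levels. *ZNF728* was listed at 0 in every library, and 158 of the 235 members reached the mean FPKM of 0.5 needed for testing, while 77 did not. The last members inside this limit were *ZNF430* and *ZNF790*, both at a mean of 0.501 FPKM, and the first outside it was *ZNF611* at 0.497 FPKM. Of the tested members, 142 reached 0.5 FPKM in the mean of each group, 11 reached the limit only through the case group and 5 only through the control group, so that the direction of those 16 was set by the limit. None of the 16 was called. Of the tested members, 61 had a mean below 1 FPKM, 76 had between 1 and 3 FPKM, and 21 had 3 FPKM or more. The median of the tested members was 1.24 FPKM, against 10.2 FPKM for the tested other protein-coding genes of chromosome 19 and 4.78 FPKM for all tested genes. In reads recovered from the FPKM values, the median tested member had a mean of 107 reads per library. In the order of the replicates, the recovered reads summed to 18590140, 17879515 and 17335803 in the control libraries. In the case libraries they summed to 16675036, 16010266 and 15328825. These sums hold only reads assigned to genes, not all reads sequenced. Single members were measured less precisely: the median standard error of the log2 fold change was 0.21 in tested members and 0.12 in tested other protein-coding genes of the chromosome.

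The labelled cell type was checked on marker genes. The general epithelial keratins *KRT8* and *KRT18* had control means of 344 and 193 FPKM, and *CDH1*, the epithelial cadherin, had 3.42 FPKM. *CDH1* was downregulated in the case group, with a log2 fold change of −0.64 ± 0.11 (limma adjusted p of 0.0156), and *KRT8* was lower without overlap, with −0.27 ± 0.11, but did not pass (limma adjusted p of 0.125). *KRT18* overlapped between the groups, with a log2 fold change of 0.02 ± 0.12 (limma adjusted p of 0.926). The part of these markers in the values of the members was not tested. The markers that define a mature proximal tubule were at or near 0. *CUBN*, *LRP2*, *SLC34A1*, *SLC5A2*, *AQP1* and *ANPEP* all had control means below 0.1 FPKM, and *GGT1* had 0.175 FPKM. The sum of 13 renal markers was 553, 542 and 529 FPKM for control and 505, 407 and 470.3 FPKM for case replicates, with *KRT8* as its most abundant gene. The sum of 3 fibroblast markers was between 0.308 and 0.400 FPKM in the control group and between 0.165 and 0.241 FPKM in the case group, with *COL1A1* as the highest. That of 4 endothelial markers was at most 0.0886 FPKM in any library, and that of 2 leukocyte markers at most 0.0326 FPKM.

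Several measures of library make-up moved with the groups. Case replicate 1 stood apart from the other case libraries: per 10 percentage points of transcript GC content, log2 values rose by 0.18 over all tested genes in case replicate 1 relative to the control mean, and fell by 0.08 and 0.05 in case replicates 2 and 3. In single control libraries the same slope was 0.02, −0.03 and 0.01. The summed level of 3 nuclear noncoding RNAs was 5.11, 4.78 and 7.10 FPKM for control and 11.5, 32.2 and 44.4 FPKM for case replicates. Most of this difference lay in *MALAT1*, with 2.89, 2.58 and 4.79 FPKM in the control group and 9.77, 29.3 and 41.9 FPKM in the case group, whereas NEAT1 had 2.23, 2.20 and 2.31 against 1.72, 2.90 and 2.46 FPKM, with overlapping groups and a log2 fold change of 0.11 ± 0.17. *KCNQ1OT1* was listed at 0 in the controls and was near 0 in the case group. Mitochondrial genes took 3.37%, 3.33% and 3.38% of the reads in the control group and 4.28%, 4.66% and 4.44% in the case group. The share of reads on lncRNA genes was 0.736%, 0.721% and 0.745% in the control group and 0.785%, 0.911% and 1.01% in the case group. The paper also lists the share of mapped reads in introns for each library, which the gene values used here do not hold. In that list the case library that stood apart by GC content lay below the control range. The other case libraries lay above it. The medians of the members by case library, given below, had the same order. What the intron share and the *MALAT1*, mitochondrial and lncRNA levels contributed to the values of the members was not tested. Values corrected for GC content are given below.

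The first comparison asked whether single members differed between the case and control groups. In limma with Benjamini-Hochberg adjustment over 13599 genes, 8 of the 158 tested members were upregulated and 1 was downregulated DE genes (adjusted p of at most 0.05). Together these were 5.70% of the tested members, where 13.2% of all tested genes were DE genes. The upregulated share was 5.06% of the members beside a background of 7.34%, and the downregulated share was 0.633% beside 5.84%. The order of the upregulated shares depended on the settings: it was 5.70% of the members beside 3.21% of all tested genes without the intensity trend of limma, 6.96% beside 6.36% after quantile normalization and 10.1% beside 9.57% with voom on recovered reads. Below a mean of 3 FPKM, 5.11% of the tested members and 2.09% of all tested genes were upregulated, and no member and 4.42% of all tested genes were downregulated. When the same FPKM sum was imposed on every library, 3 members were upregulated and 1 was downregulated, and the 998 upregulated and 794 downregulated DE genes of the whole table became 383 and 2387. With case replicate 1 left out, 14 members (8.86%) were upregulated, beside 8.91% of all tested genes, and 1 was downregulated. With case replicate 2 left out, 11 members (6.96%) were upregulated, beside 13.2%, and 1 was downregulated. No member was called in limma when control replicate 1, 2 or 3 or case replicate 3 was left out, and 16, 20, 14 and 18 members were then higher at an unadjusted p under 0.05. The share of all tested genes at that p is not given for those fits, so that these counts have no background to be read against. In those fits the whole table had only 73, 56, 59 and 110 upregulated and 28, 16, 18 and 66 downregulated genes. Most often lost over the 22 alternatives were the calls of *ZNF461* (14 alternatives), *ZNF586* (12) and *ZNF486* (10), and those of *ZNF416*, *ZNF256* and *ZNF222* were lost in 5 each. In bulk samples such as these, fewer cells of a kind and less RNA per cell cannot be told apart.

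*ZNF416* had the smallest p-value of the members. The gene lies at chr19:57571566-57578911 on the minus strand and encodes a KRAB protein with 11 fingers. Its level was 1.53, 2.09 and 1.78 FPKM in control replicates 1, 2 and 3 and 3.25, 2.85 and 3.00 FPKM in case replicates 1, 2 and 3. All case values were above all control values. The log2 fold change was 0.80 ± 0.15 (SE, n = 3 per group), with an adjusted p of 0.0179 in limma. These values rested on 73, 96 and 79 reads in the control group and 139, 117 and 118 reads in the case group. *ZNF416* shares 240 exon bases with *ZIK1* on the opposite strand, and *ZIK1* was listed at 0 in every control library.

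*ZNF256*, another KRAB gene of the same distal cluster (chr19:57940833-57947706, minus strand, 15 fingers), was second. Its level was 1.36, 1.36 and 1.77 FPKM in the control group and 2.31, 2.38 and 2.57 FPKM in the case group. The groups did not overlap, and the 3 case values lay close together. The log2 fold change was 0.74 ± 0.14 (SE, n = 3 per group), with an adjusted p of 0.0206 in limma, from 53 to 67 reads per control library and 83 to 86 per case library.

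*ZNF222* (chr19:44025342-44033110, plus strand) belongs to a cluster nearer the centre of the long arm and encodes a KRAB protein with 8 fingers. It had 1.29, 1.25 and 1.49 FPKM in the control group and 2.15, 2.05 and 2.08 FPKM in the case group. The case values were nearly equal and above every control value. The log2 fold change was 0.68 ± 0.13 (SE, n = 3 per group), with an adjusted p of 0.0217 in limma. Its exons share 345 bases with another annotated gene on the same strand, so that part of its reads may have been assigned to that gene or to none.

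The other 5 upregulated members had smaller changes or fewer reads. *ZNF461*, with a KRAB box and 10 fingers, had 0.689, 0.796 and 0.876 FPKM in the control group and 1.20, 1.27 and 1.24 FPKM in the case group, and its log2 fold change was 0.67 ± 0.18 (SE, n = 3 per group; limma adjusted p of 0.0453). This was the call with the fewest reads, 27 to 32 per control library and 40 to 43 per case library. *ZNF586*, with a KRAB box and 8 fingers, had 1.27, 1.39 and 1.09 FPKM against 1.69, 1.76 and 2.20 FPKM, with a log2 fold change of 0.62 ± 0.16 (SE, n = 3 per group; limma adjusted p of 0.0431). It shares 221 exon bases on the same strand with the protein-coding gene ENSG00000268750. It also shares 219 exon bases on the same strand with *ZNF587B*, which had a log2 fold change of 0.60 ± 0.19 that did not pass (limma adjusted p of 0.0668), and 126 bases on the opposite strand with *ZNF552*, whose log2 fold change was 0.04. Neither value shows how the shared fragments were divided.

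*ZNF486*, in a cluster of the proximal short arm and with a KRAB box and 9 fingers, had 1.41, 1.10 and 1.32 FPKM in the control group and 1.69, 2.11 and 1.80 FPKM in the case group, which gave a log2 fold change of 0.58 ± 0.15 (SE, n = 3 per group; limma adjusted p of 0.0431). *ZNF544*, with a KRAB box and 12 fingers, had 2.31, 2.38 and 2.09 FPKM against 2.75, 3.35 and 3.26 FPKM, and a log2 fold change of 0.52 ± 0.11 (SE, n = 3 per group; limma adjusted p of 0.0265). In neither gene did the groups overlap. *ZNF544* shares 511 exon bases on the same strand with the protein-coding gene ENSG00000283515, which makes its counts uncertain. The lncRNA gene *ZNF8-DT*, which shares 414 exon bases with *ZNF544* on the opposite strand, had a log2 fold change of −0.24 ± 0.30.

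*ZNF581* was the only upregulated member without a KRAB box and the most abundant of the 8. It encodes a short protein with 4 fingers, and its transcript has a GC content of 61.8%. The level was 11.96, 10.5 and 11.7 FPKM in the control group and 16.7, 13.1 and 18.1 FPKM in the case group, with 326 to 387 and 366 to 485 reads. The lowest case value was above the highest control value, and the case values were spread more widely than the control values. The log2 fold change was 0.55 ± 0.14 (SE, n = 3 per group; limma adjusted p of 0.0401). *ZNF581* shares 407 exon bases on the same strand with *ZNF580*, which had a log2 fold change of 0.01 ± 0.27, and 122 with *CCDC106*, which had 0.10 ± 0.15.

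*ZNF526* was the single downregulated member. It encodes a protein with 13 fingers and no KRAB box, at chr19:42220292-42228201 on the plus strand, and it stands apart from the large clusters, with *ZNF574* as the only other member of its group in the table. Its level was 5.89, 6.19 and 5.65 FPKM in the control group and 3.80, 4.52 and 4.02 FPKM in the case group. Every case value was below every control value. The log2 fold change was −0.44 ± 0.09 (SE, n = 3 per group; limma adjusted p of 0.0245), from 419 to 474 reads per control library and 264 to 310 per case library. The gene on the other strand, *GSK3A*, shares 197 exon bases with it and had a log2 fold change of 0.20 ± 0.10.

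**Figure D1:**
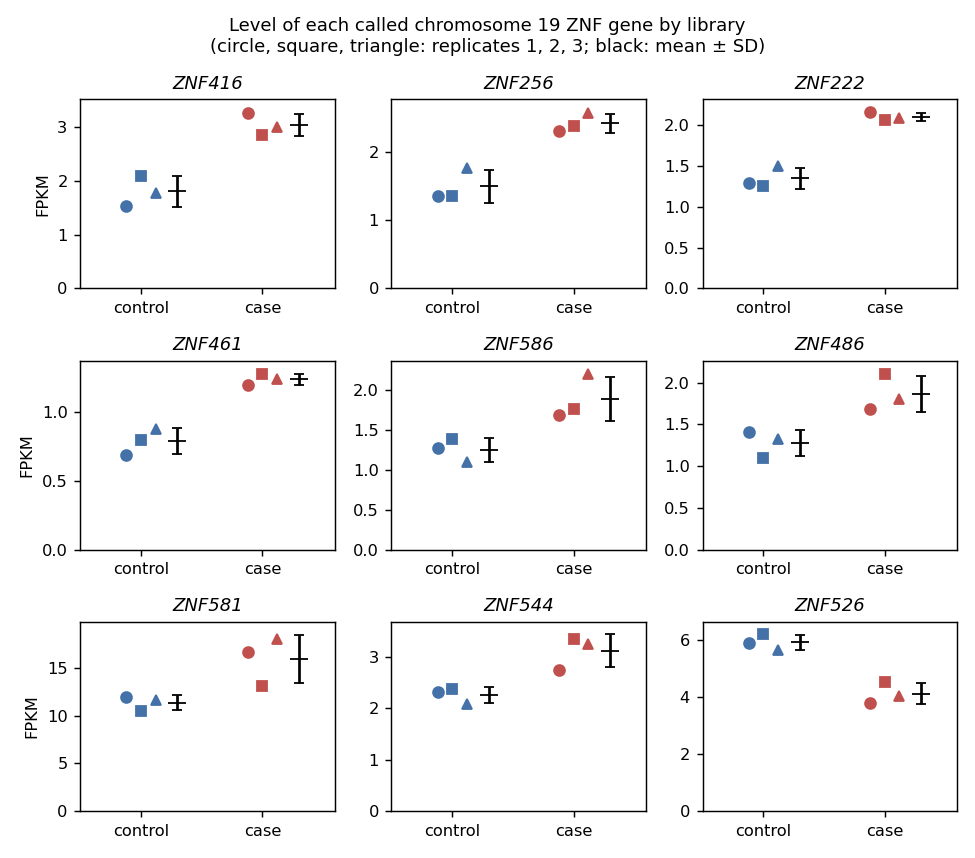
FPKM in each library of the 8 upregulated members and of ZNF526, the downregulated member; circles, squares and triangles are replicates 1, 2 and 3 (blue, control group; red, case group), and black marks give mean ± SD of 3 replicates. In each panel the case values do not overlap the control values, and the vertical axes start at 0 and differ in scale.

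Of the 5 most abundant members, *ZNF581* is described above and the others did not pass the test. *ZNF146*, whose protein consists almost wholly of zinc fingers, was the highest, with 29.1, 28.5 and 27.6 FPKM in the control group and 22.2, 35.9 and 35.1 FPKM in the case group. Case replicate 1 was below and the other case replicates were above all controls, and the log2 fold change was 0.17 ± 0.16 (SE, n = 3 per group; limma adjusted p of 0.474), or −0.03 with the same FPKM sum in every library. *ZNF787* showed the opposite order, with 25.5, 23.7 and 27.9 FPKM in the control group and 33.5, 24.9 and 26.3 FPKM in the case group. Only case replicate 1 exceeded the controls there, and the log2 fold change was 0.20 ± 0.14. The transcript of *ZNF146* has a GC content of 38.9% and that of *ZNF787* has 70.4%. Below *ZNF581* in level, *ZNF317* had between 10.8 and 12.3 FPKM in the control group and between 10.9 and 12.9 FPKM in the case group, with a log2 fold change of 0.14 ± 0.09, or −0.06 with the same FPKM sum. *ZNF524* had 8.52, 8.45 and 7.36 FPKM against 11.7, 6.55 and 10.9 FPKM, and its log2 fold change was 0.29 ± 0.22.

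Below the threshold, 14 further members had a positive log2 fold change at an unadjusted p under 0.05, with adjusted p-values in limma from 0.0533 to 0.15 and log2 fold changes from 0.32 to 0.89. The examples given here were picked after their values were seen. *ZNF773*, a KRAB gene with 9 fingers, had 0.312, 0.449 and 0.371 FPKM in the control group and 0.608, 0.857 and 0.774 FPKM in the case group. Its groups did not overlap, and its log2 fold change of 0.89 ± 0.28 (SE, n = 3 per group) was the highest of the members but rested on 47 to 65 reads per control library. *ZNF850*, with 29 fingers, had 0.410, 0.355 and 0.286 FPKM against 0.617, 0.587 and 0.837 FPKM, a log2 fold change of 0.85 ± 0.30. The control means of *ZNF773* and *ZNF850* were 0.377 and 0.350 FPKM, so that both were tested only through their higher case values, and their fold changes are given as a description. *ZNF57*, with 13 fingers, had 1.29, 1.63 and 1.04 FPKM against 1.70, 2.09 and 2.13 FPKM, a log2 fold change of 0.63 ± 0.18. In *ZNF850* and *ZNF57* the lowest case value was above the highest control value.

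**Figure D2:**
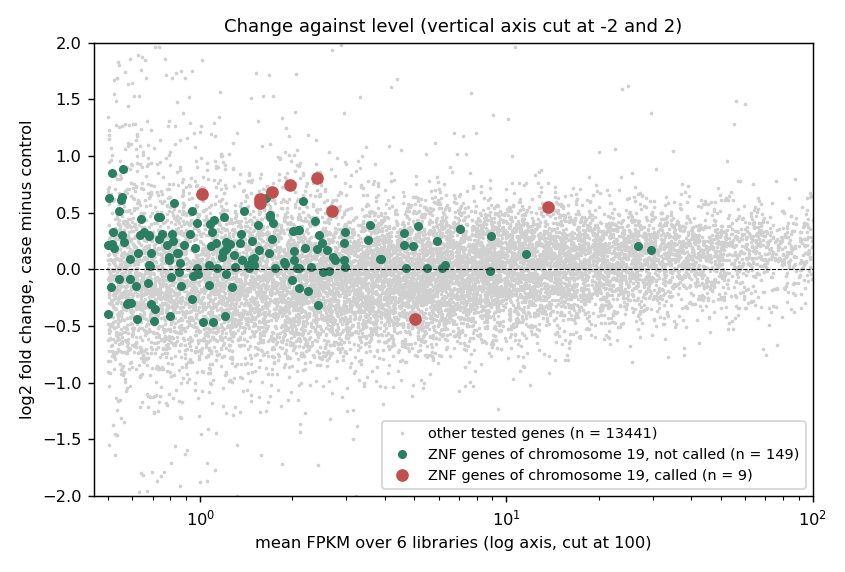
Log2 fold change (case minus control) against mean FPKM over the 6 libraries on a log axis, for the other tested genes (grey), 149 tested members that were not DE genes (green) and the 9 that were (red). Members lie mostly at low levels and above the zero line under median-of-ratios scaling, with 124 of 158 above it; with the same FPKM sum in every library 75 of 158 lie above it.

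The second comparison was that of the members as a group with other genes. Over the tested members the median of the log2 fold changes was 0.17, against −0.00 for all tested genes and 0.03 for the tested other protein-coding genes of chromosome 19, but it was −0.02 with the same FPKM sum in every library, where the median of all genes was −0.19. That scaling moved all genes together, and the median of the members was 0.17 above that of all genes under both. Without case replicate 2 the median was 0.09 for the members and 0.10 for the other genes of chromosome 19, so that the members no longer lay above their neighbours; with the GC correction and without case replicate 2 the medians were 0.15 and 0.05. A positive log2 fold change was seen in 124 of 158 tested members (78.5%) and in 49.8% of all tested genes, and with the same FPKM sum in 75 members (47.5%) and in 27.5% of all tested genes. Without a filter on low values, 168 of 234 members (71.8%) and 51.3% of 27922 genes had a positive value. At an unadjusted p under 0.05 in limma, 22 members (13.9%) were higher, beside 16.8% of all tested genes, and 1 (0.633%) was lower, beside 16.2%. Most members with a positive value were thus not called as single genes. Since the members were chosen with results of these data known, no test was made over them.

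Counts of separated groups showed the same asymmetry under the median-of-ratios scaling. In 36 of 158 tested members (22.8%) every case value was above every control value, where 19.5% of all tested genes showed this. The 158 include the 11 members tested only through the case group and the 5 tested only through the control group, whose direction was set by the limit. The counts of separated groups were not repeated without them. In 4 members (2.53%) every case value was below every control value, where the background was 20.4%. Against all genes, the share of members with higher separated values was therefore near the background, and the share with lower separated values was under it. Below a mean of 3 FPKM, 24.1% of the members and 9.89% of all tested genes were higher without overlap, and 2.19% and 21.4% were lower. Besides *ZNF526*, the lower ones were *ZNF324B*, *ZNF615* and *ZNF708*, which are named here after their values were seen. Their log2 fold changes were −0.46 ± 0.22, −0.30 ± 0.23 and −0.44 ± 0.25 and did not pass the test. The log2 fold changes of all tested members ranged from −0.46 in *ZNF324B* to 0.89 in *ZNF773*, which was tested only through its case values. Among the 142 members at 0.5 FPKM or more in both groups, the highest was 0.80 in *ZNF416*, the median was 0.16 and 113 (79.6%) were positive.

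Other genes of like level had other values. Of all 5270 tested genes below a mean of 3 FPKM, 40.8% had a positive log2 fold change and the median was −0.09. Of the 137 tested members below 3 FPKM, 76.6% were positive with a median of 0.17, and of the 21 members at 3 FPKM or more, 19 were positive with a median of 0.20. ZNF genes of other chromosomes, which are of the same protein family, had a median log2 fold change of 0.02 over 200 tested genes, with 17 upregulated and 5 downregulated DE genes and 52.0% positive values. Among 19 genes of chromosome 19 that encode zinc finger proteins under other symbols, 12 were tested and none was a DE gene in limma, 1 having an unadjusted p under 0.05. Their median was 0.11 and 8 of the 12 were positive.

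The third comparison was by case library, and the 3 case libraries did not rank the members as they ranked the other genes of the chromosome. The median difference of the tested members from the control mean, on the log2 scale, was 0.00 in case replicate 1, 0.34 in case replicate 2 and 0.19 in case replicate 3. For the other protein-coding genes of chromosome 19 it was 0.23, −0.10 and −0.03, so that the library lowest for the members was the highest for their neighbours. ZNF genes of other chromosomes had medians of −0.06, 0.14 and 0.01, in the order of the members, and 33.0%, 52.0% and 41.0% of them were above all 3 control libraries. The SD of the 3 medians was 0.17 in both sets. In 122 of 158 tested members the value in case replicate 2 was above that in case replicate 1. With the same FPKM sum in every library the medians of the members became −0.25, 0.23 and −0.01 and those of all genes −0.26, −0.11 and −0.20.

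In case replicate 1, 56 tested members (35.4%) were above all 3 control libraries, beside 40.4% of all tested genes, and 50 (31.6%) were below all 3, beside 40.4%. In case replicate 2, 116 members (73.4%) were above all controls, where the background was 35.6%, and 10 (6.33%) were below, where it was 36.4%. In case replicate 3, 88 members (55.7%) were above all controls, beside 39.1%, and 27 (17.1%) were below, beside 39.5%. The members therefore stood above the controls far more often than the background in case replicates 2 and 3, and not in case replicate 1. These counts include the 11 members that reached the limit for testing only through the case group and the 5 that did so only through the control group. Within the control group the medians of the members were −0.02, 0.05 and −0.02, all smaller in size than those of case replicates 2 and 3. Summed over all 235, the members held 31299, 30893 and 29300 reads of the control replicates and 26511, 32518 and 28429 reads of the case replicates. Per 1000000 recovered reads of the library these were 1684, 1728 and 1690 for control and 1590, 2031 and 1855 for case. Relative to depth, case replicate 1 thus lay below the control range and the other case replicates lay above it.

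**Figure D3:**
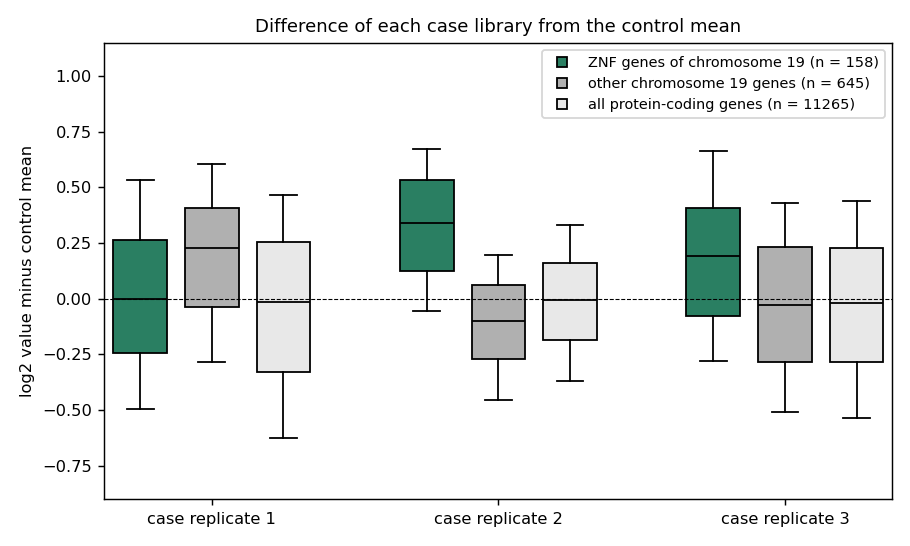
Difference of each case library from the control mean on the log2 scale after median-of-ratios scaling, for the 158 tested members (green), 645 tested other protein-coding genes of chromosome 19 (dark grey) and all 11265 tested protein-coding genes (light grey); boxes give quartiles and median, whiskers the 10th and 90th percentiles. The member medians are 0.00, 0.34 and 0.19, and those of the other chromosome 19 genes 0.23, −0.10 and −0.03; with the same FPKM sum the member medians are −0.25, 0.23 and −0.01.

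The order of the case libraries differed between classes of members. Over the 131 tested members with a KRAB box, the medians were −0.02, 0.37 and 0.20 in case replicates 1, 2 and 3. For the 27 tested members without a KRAB box they were 0.30, 0.06 and 0.14. With values corrected for GC content, as described below, the medians were 0.10, 0.31 and 0.17 with a KRAB box and 0.16, 0.21 and 0.18 without. When members were grouped by the GC content of the transcript, the median in case replicate 1 was −0.23 for 42 members at 30% to 40%, −0.03 for 65 members at 40% to 45% and 0.17 for 23 members at 45% to 50%. The corresponding medians were 0.36, 0.37 and 0.46 in case replicate 2 and 0.19, 0.24 and 0.31 in case replicate 3. The bins above 50% held 6, 5 and 17 members, fewer than 20 each, and their medians in case replicate 1 were between 0.17 and 0.51.

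Protein-coding genes of other chromosomes followed GC content in case replicate 1 too, with medians of −0.31, −0.12 and −0.00 in the first 3 bins. In the same bins their medians were 0.01, 0.06 and 0.05 in case replicate 2 and −0.03, 0.04 and 0.01 in case replicate 3. In these bins the members therefore lay above those genes in each case library: by bin, 80.0% of the members and 49.4% of the other genes at 40% to 45% had a positive log2 fold change, as did 69.0% and 35.6% at 30% to 40% and 91.3% and 51.6% at 45% to 50%. Within chromosome 19 few other tested genes had such transcripts. The 10 of them at 40% to 45% had a median log2 fold change of 0.21, with 8 positive and 3 upregulated. The 65 members of that bin had 0.19, with 52 positive and 1 upregulated, beside 7.34% of all tested genes upregulated. The 11 other genes of the chromosome at 45% to 50% had 0.02, with 7 positive and 0 upregulated. The 23 members of that bin had 0.30, with 21 positive and 4 upregulated. After the values of each library were corrected for GC content, the medians of the members were 0.11, 0.31 and 0.18 in case replicates 1, 2 and 3 and those of the other protein-coding genes of chromosome 19 were 0.07, 0.01 and 0.03. With this correction 18 members (11.4%) were upregulated and 1 was downregulated in limma, where 13.4% of all tested genes were upregulated and 11.2% downregulated. The 8 members upregulated without the correction were among the 18, and with case replicate 3 left out as well 6 members were upregulated.

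**Figure D4:**
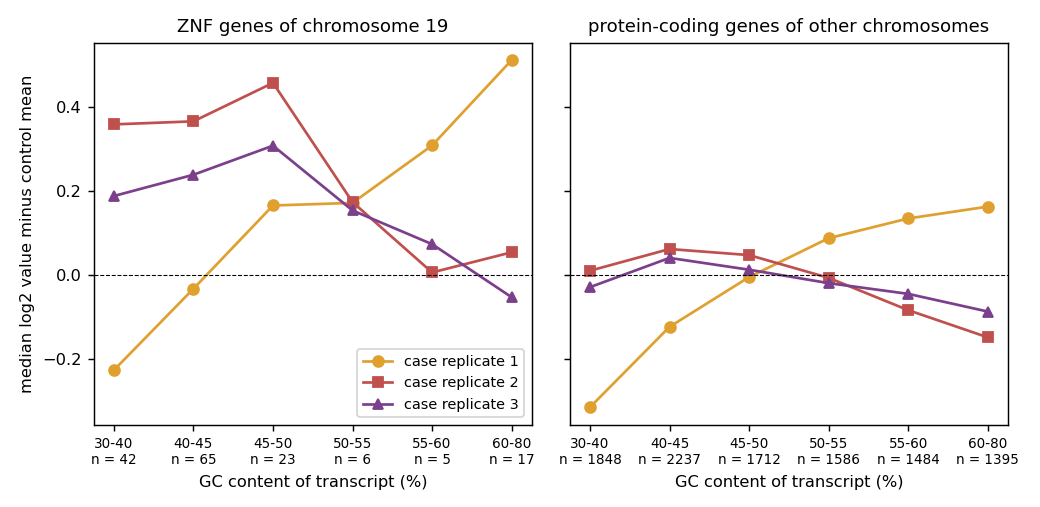
Median log2 difference of each case library from the control mean by GC content of the transcript (%), for tested members (left) and tested protein-coding genes of other chromosomes (right), after median-of-ratios scaling. Case replicate 1 (orange) increases with GC content in both panels, and in the bins from 30% to 50% the members have higher medians than the other genes in every case library; the 3 bins above 50% hold 6, 5 and 17 members.

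The members were divided into 16 clusters at gaps of more than 1 Mb between neighbours. The distal cluster of the long arm, from *ZNF628* to *ZNF446* (chr19:55476617-58481230), held 59 members, of which 44 were tested. Its upregulated members were *ZNF416*, *ZNF256*, *ZNF586*, *ZNF581* and *ZNF544*, 5 of 44 tested (11.4%) beside 7.34% of all tested genes, and its medians were 0.26, 0.35 and 0.20 in case replicates 1, 2 and 3. With 38 of 44 tested members positive, its median log2 fold change was 0.24. The median GC content of its tested transcripts was 47.0%, and that of the next cluster described was 39.4%. The cluster from *ZNF565* to *ZNF573* (chr19:36182276-37817300), which holds *ZNF461*, had 19 of 20 tested members positive and a median of 0.21, with −0.16, 0.41 and 0.36 by library. The cluster from *ZNF575* to *ZNF296* (chr19:43525497-45076478), which holds *ZNF222*, had 14 of 17 positive and a median of 0.25.

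Clusters on both sides of the centromere had other values. From *ZNF101* to *ZNF43* (chr19:19668796-21852125), 10 of 20 members were tested, 5 of them were positive and the median was −0.03, although *ZNF486* was upregulated there. From *ZNF728* to *ZNF254* (chr19:22974883-24129968), only 2 of 8 members were tested, and both log2 fold changes were negative, with a median of −0.44. From *ZNF302* to *ZNF792* (chr19:34677639-34964229), 3 of 5 tested members were positive and the median was 0.01. The large cluster from *ZNF175* to *ZNF331* (chr19:51571283-53580269) had 20 of 27 tested members positive and a median of 0.10. None of these 27 was a DE gene, where 13.2% of all tested genes were. In case replicate 2 all of the 9 clusters with at least 4 tested members had a positive median, whereas in case replicate 1 4 of them were negative and in case replicate 3 2 of them were; these signs hold under the median-of-ratios scaling.

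**Figure D5:**
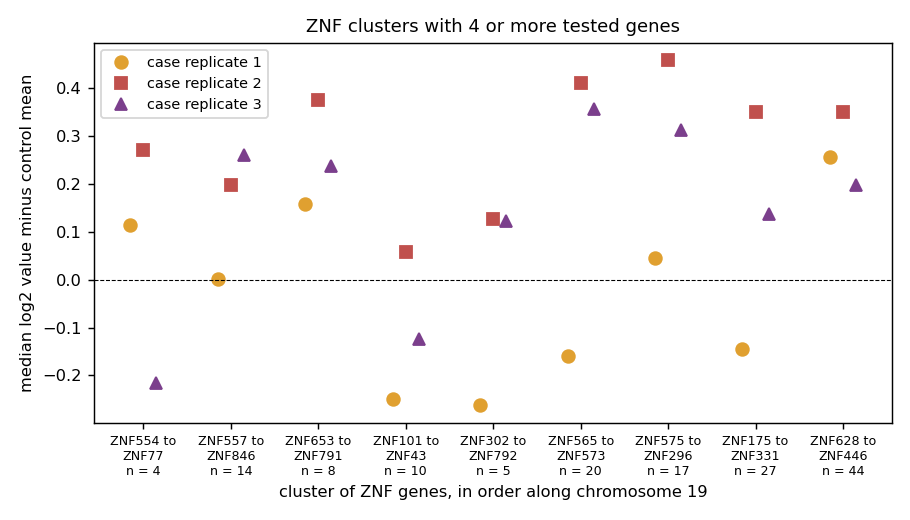
Median log2 difference of each case library from the control mean (median-of-ratios scaling) for the 9 clusters with 4 or more tested members, in order along chromosome 19 and named by their first and last gene, with the number tested. Case replicate 2 is above zero in every cluster, and case replicate 1 ranges from −0.26 to 0.26, with its highest median in the distal cluster from ZNF628 to ZNF446, whose tested transcripts have a median GC content of 47.0%.

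Some start regions of the members held letters that were rarer over the start regions of all genes. ZNF genes of other chromosomes were not counted apart here. RefSeq promoter windows of GRCh38, from 250 bases before to 50 bases after the start, were matched for 209 of the 235 members. The letters ACTAC, any 4 bases and CCCA, the core of a site known for the factor *ZNF143*, were found on either strand in 25.4% of these windows, in 2.92% of those of the other protein-coding genes of chromosome 19 and in 2.19% of all 27305 windows. The ETS-type letters ACTTCCG were found in 32.1%, 8.35% and 7.23%. Both sets of letters were chosen after the sequences had been seen, and no set of the 4 searched contains another. The core letters of the metal response element, TGCGCNC or TGCACNC, were found in 42.6%, 36.3% and 29.4%, and TGATGNAA, the core of the composite site of ATF4, in 1.44%, 1.98% and 3.67%. The median GC content of the members' windows was 60% and that of all windows 58.3%.

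Of the upregulated members, *ZNF416* and *ZNF586* had the first of these sets of letters. Their 250 bases before the start are shown on the gene's strand with ACTAC and CCCA in capitals.
ZNF416: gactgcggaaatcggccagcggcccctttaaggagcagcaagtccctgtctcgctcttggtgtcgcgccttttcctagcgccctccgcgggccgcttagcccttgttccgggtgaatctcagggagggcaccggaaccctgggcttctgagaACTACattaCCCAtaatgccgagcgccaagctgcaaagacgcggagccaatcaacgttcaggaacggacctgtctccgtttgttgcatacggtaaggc
ZNF586: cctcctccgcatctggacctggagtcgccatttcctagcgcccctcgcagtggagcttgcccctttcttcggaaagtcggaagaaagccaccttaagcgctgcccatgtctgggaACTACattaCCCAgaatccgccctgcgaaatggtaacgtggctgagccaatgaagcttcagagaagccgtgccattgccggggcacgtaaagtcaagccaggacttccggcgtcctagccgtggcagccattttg
They lie at chr19:57578912-57579161 on the minus strand and chr19:57769426-57769675 on the plus strand, and the letters begin 98 and 135 bases before the start. The tested members with these letters had a median log2 fold change of 0.21 (n = 42) and those without them 0.17 (n = 102). Upregulated were 2 of 42 and 6 of 102, beside 7.34% of all tested genes. For ACTTCCG the medians were 0.23 (n = 53) and 0.14 (n = 91), and *ZNF526* was among those without it. Upregulated were 5 of 53 and 3 of 91, beside the same 7.34%. For the metal response element core the medians were 0.20 (n = 64) and 0.15 (n = 80), with 2 of 64 and 6 of 80 upregulated. The ATF4 core was found for 1 tested member, *ZNF486*. A link between the letters and the calls was not tested. A match describes letters in the window only, and no binding was measured in these cells.

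The partners of the KRAB proteins were read from a list of 39 genes of the corepressor and heterochromatin machinery, all of which were tested. None was upregulated in limma, with 3 (7.69%) higher and 13 (33.3%) lower at an unadjusted p under 0.05 beside 16.8% and 16.2% of all tested genes, and 6 were downregulated, or 15.4% beside the background of 5.84%. The median log2 fold change of the list was −0.10, and 13 of the 39 were positive. *TRIM28*, the shared corepressor, had 115, 113 and 108 FPKM in the control group and 127, 107 and 114 FPKM in the case group. The groups overlapped, and the log2 fold change was 0.12 ± 0.10 (SE, n = 3 per group; limma adjusted p of 0.429), which became −0.08 with the same FPKM sum and −0.06 after quantile normalization. *SETDB1* had 7.43, 6.84 and 6.36 FPKM against 5.39, 6.96 and 6.13 FPKM, and a log2 fold change of −0.09 ± 0.11.

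The downregulated partners belong to several complexes. *ATF7IP*, the partner that stabilises *SETDB1*, had 2.68, 2.79 and 2.77 FPKM in the control group and 1.16, 1.97 and 1.47 FPKM in the case group, and fell by 0.76 ± 0.17 on the log2 scale (SE, n = 3 per group; limma adjusted p of 0.0278). *MPHOSPH8*, a subunit of the HUSH silencing complex, had 5.59, 6.54 and 5.95 FPKM against 3.34, 4.31 and 4.54 FPKM, with a log2 fold change of −0.49 ± 0.12. *CBX5*, the HP1 alpha protein, had 6.34, 7.23 and 6.48 FPKM against 3.24, 5.18 and 3.96 FPKM, with a log2 fold change of −0.63 ± 0.15. In each of these genes the groups did not overlap. *CHD3*, an ATPase of the NuRD complex, fell by 0.37 ± 0.08, *UHRF1*, which guides maintenance of DNA methylation, by 0.36 ± 0.07, and the de novo DNA methyltransferase *DNMT3A* by 0.51 ± 0.13. Adjusted p-values of these 5 genes in limma were between 0.0204 and 0.0425. All 6 of these calls were lost when control replicate 1, 2 or 3 or case replicate 3 was left out, with log2 fold changes that stayed negative. *DNMT3A* was also lost under the replicate block, after quantile normalization and with the GC correction when case replicate 1 or 3 was left out, *CBX5*, *CHD3* and *MPHOSPH8* without the intensity trend, and *ATF7IP*, *CBX5*, *DNMT3A* and *MPHOSPH8* without a filter on low values.

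*ZNF274*, a member whose protein is known to bind the 3′ ends of many ZNF genes and to bring *SETDB1* there, was looked at for this role after its values were seen. It had 3.16, 3.43 and 2.91 FPKM in the control group and 3.49, 4.22 and 4.22 FPKM in the case group. The lowest case value was just above the highest control value, and the log2 fold change of 0.39 ± 0.11 (SE, n = 3 per group) did not pass, with an adjusted p of 0.0533 in limma. Of the 158 tested members, 90 share exon bases with another annotated gene, and for these the assignment of fragments between overlapping genes remains uncertain because the strandedness of the libraries is not given in the sources used here.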

How the data were processed

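RNA of 3 control and 3 case replicates of HK-2 cells was sequenced. The values deposited by the authors were FPKM per gene. According to the submitters' processing notes the reads were aligned to GRCh38.p13 with HISAT2 2.1.0 and counted with HTSeq 0.6.0. The annotation version, the RNA selection and the strandedness are not given in the sources used here. Whole reads were recovered with a tolerance of 0.01 reads, from the steps between FPKM values for 15323 genes and with the annotated exon length for 12598; 1 gene was not resolved. The reads per library given in the report come from this recovery and hold only reads assigned to genes. No source names molecular identifiers, so that reads need not be separate molecules.

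Symbols, positions, GC content and coding sequences were taken by Ensembl identifier from GENCODE release 44 for 29063 genes. KRAB boxes were called with HMMER 3.4 at an E-value of at most 1e-04. Each FPKM column was divided by its median-of-ratios factor, 0.1 was added and log2 was taken. Genes whose mean FPKM reached 0.5 were tested with limma 3.58.1 in R 4.3.3, with an intensity trend, no covariate and Benjamini-Hochberg adjustment over all tested genes. The procedure was also run on simulated reads, with the same dispersion for every gene and no difference by GC content between libraries. The real libraries did differ by GC content, and the outcome of that run is not used here. Fold changes are on this log2(value + 0.1) scale, which understates changes of low genes.

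Named genes were every DE member, the 5 most abundant members, *TRIM28*, *SETDB1* and the DE genes of the corepressor list. Some genes that share exon bases with a DE member were named beside it. Others whose fold changes are given, apart from the markers, are said to have been chosen later. Further lists were zinc finger genes of chromosome 19 with other symbols and markers of renal epithelium, fibroblasts, endothelium, leukocytes and nuclear RNA. Some genes of the renal list are not reported here. The members and lists were chosen with earlier results of these data known. The alternatives were other pseudocounts, filters, scalings and limma settings, voom on the recovered reads, a GC correction, the replicate number as a block and leaving out each replicate.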

Additional observations from a re-analysis of the deposited data

How the results depend on the processing

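The number of upregulated members, 8, ranged from 0 to 14 when single replicates were left out (0 without any control replicate or case replicate 3, 14 without case replicate 1), and that of downregulated members, 1, from 0 to 1; these fits compare 2 replicates with 3. It was 4 (2.53%, beside 4.87% of all tested genes) with FPKM as deposited, 3 (1.90%, beside 2.82%) with the same FPKM sum, 16 (10.1%, beside 9.57%) with voom on recovered reads and 18 (11.4%, beside 13.4%) with the GC correction. Without a filter on low values 0 members were upregulated and 0 downregulated in limma, beside 1.24% and 0.634% of all tested genes. At an unadjusted p under 0.05 in that fit, 23 members were higher and 2 lower, and the share of all tested genes at that p is not given. Alternatives added after the data were seen gave 13, 17 and 6 upregulated members (8.23%, 10.8% and 3.80%, beside 8.70%, 19.1% and 6.45% of all tested genes) and 1, 2 and 0 downregulated members for the GC correction without case replicates 1, 2 and 3, and 8 (5.06%, beside 10.8%) and 1 for the GC correction with the replicate block. The median log2 fold change of the members ranged from 0.09 to 0.24 when single replicates were left out, and that of other chromosome 19 genes from −0.07 to 0.10; without case replicate 2 they were 0.09 and 0.10. With the same FPKM sum these medians were −0.020 and −0.17, the members' medians in case replicates 1 and 3 were −0.25 and −0.011, and the log2 fold changes of *ZNF146*, *ZNF317* and *TRIM28* reversed to −0.025, −0.060 and −0.078. *TRIM28* was also −0.059 after quantile normalization. The 9 DE members kept their direction under every alternative. The cause of these changes was not tested.

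With the replicate number as a block, 5 members (3.16%, beside 6.24% of all tested genes) were upregulated and 1 (0.633%, beside 5.60%) was downregulated. Deviations of same-numbered samples from their group means correlated at 0.06, 0.10 and −0.05 over the tested genes. Case replicates 1 and 3 correlated best with a control replicate of another number, and case replicate 2 with that of its own. Deviations from means of 3 samples cannot settle whether same-numbered samples were paired, and the labels give only the number.

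Members near the limit for testing rest on few reads, and 3 replicates per group cannot tell library make-up from treatment. Shared exons, and fingers where they are alike between members, can make counts uncertain.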
